A study of Glycine max with 24 samples.

Results

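The comparison described here is that of resistant soybean leaves after 1 day with aphids against resistant leaves of the same day without aphids. It rests on 6 of the 24 arrays of the series, taken by their titles: 3 arrays of infested leaves and 3 arrays of uninfested leaves, all of the aphid-resistant cultivar LD05-16060. The series crossed cultivar (resistant LD05-16060, susceptible SD01-76R), infestation and day (1 or 7) in 8 groups of 3 arrays. The third trifoliate leaves were taken from soybean plants (Glycine max) at the V3 stage grown in a chamber at 25 °C with 16 h of light a day. Infested plants received 30 aphids, 10 on each leaflet, of which at least 21 were adults, and the aphids were taken off before the leaves were sampled. Every plant had a net against movement of aphids, and whether uninfested leaves were brushed in the same way is not stated. Susceptible SD01-76R leaves of day 1, infested and uninfested, and resistant leaves of day 7, infested and uninfested, serve below to show where the day 1 resistant leaves differ. The labels do not say if several plants were pooled into a sample, and the p-values reflect only how much these samples vary, part of which may be technical.

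Aphids feed from the sieve tubes of the phloem through a thin stylet, and a plant can meet them with hormone signals (salicylate, jasmonate, ethylene, abscisic acid), with phenolic compounds made from phenylalanine, and with proteins that plug the sieve tubes. Soybean cultivars with resistance limit the growth of aphid colonies, and such resistance can act before or after feeding begins. A leaf array reads all cells of the leaf together, so fewer cells of a type and less RNA per cell cannot be told apart.

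Each value below is a log2 intensity of a probe set (several short probes for the same transcript) after quantile normalization of 37593 soybean probe sets over the 24 arrays. Over all arrays, 5% of values lay under 5.28, the median was 7.61 and 5% lay above 11.2. A difference is infested minus uninfested in log2 units, given ± its standard error from limma, with 3 arrays in each group. Levels are not compared between probe sets. Few probe sets carry a name: 1880 of them, from 1129 genes, have an informative gene symbol.

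The 3 infested resistant arrays were less alike than the arrays of any other group. Their mean pairwise correlation was 0.957, against 0.981 among the 3 uninfested resistant arrays, and the median standard deviation of a probe set within the group was 0.219, against 0.161. Infested replicate 2 stood apart from the other two: it scored −66.2 on the first principal component of the series, where infested replicates 1 and 3 scored −23.1 and 12.5 and the uninfested replicates 1, 2 and 3 scored 17.5, 7.22 and −22.6. The signal at the 3′ end minus that at the 5′ end of 5 control transcripts, a measure that grows as RNA breaks down, was 0.928, 1.67 and 0.809 on infested replicates 1, 2 and 3, against 0.887, 0.814 and 0.997 on the uninfested ones. Infested replicate 2 correlated best with uninfested replicate 3 (0.963), and infested replicate 3 correlated better with each uninfested array (0.982 to 0.985) than with infested replicates 1 (0.975) and 2 (0.942). The 2 light-harvesting markers went with the leaf label: they averaged 14.6 on infested and 14.6 on uninfested arrays, in the top 5% of values. The median member of 18 root and nodule markers was at 5.77 and 5.70 and that of 45 seed markers at 5.59 and 5.59, near the lowest 5%. Not every member was low. The highest root and nodule marker was at 10.1 and 10.4, and the highest seed marker at 12.6 and 12.8, in the top 5%.

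**Figure D1:**
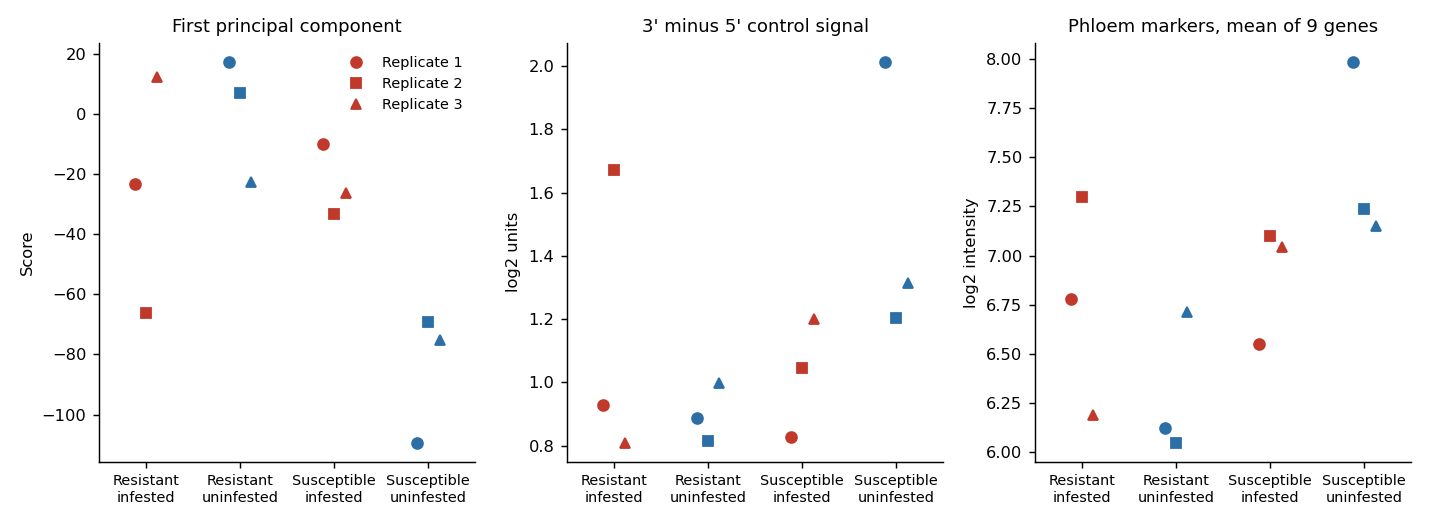
First principal component score (left), 3′ minus 5′ control signal in log2 units (middle) and mean log2 intensity of 9 phloem genes (right) for each array of the 4 day 1 groups, infested in red and uninfested in blue, with symbols for the replicate number. Among resistant leaves, infested replicate 2 (square) lies apart on the first 2 measures, and the uninfested susceptible arrays have the lowest scores and a wide range of control signal.

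The 9 phloem genes, 8 of them sieve element occlusion genes (whose proteins form the plugs of damaged sieve tubes) and the sucrose transporter gene SUT1, had a mean level of 6.78, 7.30 and 6.19 on infested replicates 1, 2 and 3, against 6.12, 6.05 and 6.71 on the uninfested arrays. The groups overlapped, because infested replicate 3 lay below uninfested replicate 3. All 9 genes had a difference above 0, with a median of 0.61 and a range from 0.06 to 0.83, where the median of all soybean probe sets was −0.016. None passed the test. Without infested replicate 2 the median was 0.25 and 8 of the 9 genes stayed above 0, and it was 0.45 on unscaled values. The part of this shift in the results below was not tested.

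No probe set passed an adjusted p of 0.05 between infested and uninfested resistant leaves after 1 day: 0 of 37593 (0%) by limma with Benjamini-Hochberg adjustment, with a smallest adjusted p of 0.62. At an unadjusted p under 0.05 there were 2865 probe sets (7.62%), 1228 higher (3.27%) and 1637 lower (4.35%) in infested leaves, where 1880 would be reached by a flat distribution of p-values. The excess over 1880 was not stable. The count was 1847 with only the groups of this comparison fitted, and 1283 to 5520 with an array left out. It was under 1880 without infested replicate 2 (1690) or uninfested replicate 2 (1283). The 3 infested and 3 uninfested arrays did not overlap for 3630 probe sets (9.66%), of which 1394 were higher (3.71%) and 2236 lower (5.95%) in infested leaves. With 3 arrays against 3, about this share separates by the order of the arrays alone. A lack of overlap for a gene below therefore describes its arrays and is not a call. The depth of the design sets what this comparison can show. The median 95% interval reached 0.362 log2 units to either side of the estimate, and for 87.8% of probe sets the whole interval lay within 1 log2 unit of 0, so a 2-fold change lies outside the interval for these. These intervals rest on the spread shared by all groups. The median SD was 0.219 in infested and 0.161 in uninfested resistant arrays, and 0.176 to 0.188 in the other groups, so the intervals may misstate the precision here. A 2-fold change or more was estimated for 394 probe sets, 267 higher and 127 lower, none of which passed. The count of passing probe sets stayed at 0 with any array left out except infested replicate 3, without which 4 passed, and uninfested replicate 1, without which 1 passed.

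**Figure D2:**
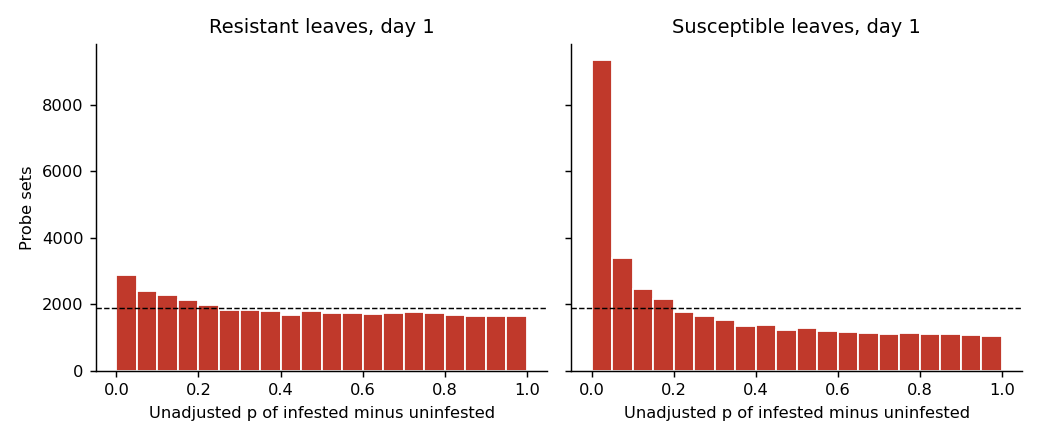
Number of probe sets (vertical axis) in bins of the unadjusted p of infested minus uninfested leaves (horizontal axis) on day 1, for resistant leaves (left) and susceptible leaves (right); the dashed line marks the height of a flat distribution. The lowest bin holds 2865 probe sets in resistant and 9355 (24.9%) in susceptible leaves.

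The same test in susceptible leaves of day 1 called 1883 probe sets (5.01%), 648 higher (1.72%) and 1235 lower (3.29%) in infested leaves, and in resistant leaves of day 7 it called 1 (0.00266%). Among the 100 probe sets of smallest p in day 1 resistant leaves, 77 were lower and 23 higher in infested leaves, and 5 had a gene name. The probe set of smallest p, of the gene LOC100500479, had −1.65 ± 0.32, and the next, which has no gene in the annotation, had −0.61 ± 0.12. Both groups of 3 arrays were separate for each of them.

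Named genes were taken by their p, 12 with the smallest p above 0 and 12 below 0, and none of them passed (adjusted p from 0.620 to 0.623, limma). Of the 12 above 0, 7 had infested and uninfested arrays that did not overlap, and so did 7 of the 12 below 0, counts that follow from the choice by p. The estimates above 0 ran from 0.38 to 1.71 and those below 0 from −1.15 to −0.41. Infested replicate 2 lay farthest from the uninfested mean for 10 of the 12 genes above 0 and for 9 of the 12 below 0. It was farthest for 46.9% of all probe sets and for 64.3% of the 2865 at an unadjusted p under 0.05 by limma.

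Of the 12 genes above 0, SUT1, a sucrose transporter gene, had 8.92, 9.08 and 8.73 on infested replicates 1, 2 and 3, against 8.10, 8.12 and 8.37 on uninfested ones, a difference of 0.71 ± 0.24. All 3 infested arrays lay above all uninfested arrays, and the same was true of both other SUT1 probe sets (0.61 ± 0.23 and 0.48 ± 0.24). SHMT, serine hydroxymethyltransferase, which interconverts serine and glycine, had 11.77, 12.13 and 11.31, against 10.85, 10.55 and 11.14, a difference of 0.89 ± 0.33 with no overlap. MDH-1, a malate dehydrogenase, had 11.03, 11.33 and 10.82, against 10.76, 10.47 and 10.79, a difference of 0.39 ± 0.13. Its infested arrays were all higher, though replicate 3 exceeded the highest uninfested array by little, and its other 2 probe sets had 0.34 and 0.14. Its difference was 0.25 without infested replicate 2.

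GER16, of the germin-like proteins of the cell wall, had the largest estimate of the 12, with 9.96, 11.60 and 8.89 on infested arrays, against 7.81, 7.39 and 10.13 on uninfested arrays, a difference of 1.71 ± 0.57. The groups overlapped, since uninfested replicate 3 lay above infested replicates 1 and 3, and the estimate was 0.98 without infested replicate 2. ALDH3J2, an aldehyde dehydrogenase, had 7.10, 7.43 and 5.81, against 5.72, 6.02 and 5.68, a difference of 0.98 ± 0.30. Infested replicates 1 and 2 were high and replicate 3 lay within the uninfested range; without that replicate the difference was 1.46 and its adjusted p was 0.0417 by limma, the only one of the 24 to pass in any setting tried. AIR12, named for induction by auxin in Arabidopsis, had 8.40, 8.88 and 7.70, against 7.49, 7.04 and 7.59, a difference of 0.95 ± 0.29 with no overlap. TUBB3, a beta-tubulin of the microtubules, had 10.35, 10.82 and 9.62, against 9.28, 9.05 and 9.97, a difference of 0.83 ± 0.27 with overlap. Without infested replicate 2 the differences of TUBB3 and ALDH3J2 were 0.55 and 0.65.

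PAP had 10.32, 10.76 and 9.87 on infested arrays, against 9.50, 9.20 and 9.84 on uninfested arrays, a difference of 0.80 ± 0.23. All infested arrays were higher, replicate 3 by little, and a second PAP probe set had 0.48 ± 0.23. CEL12 had 11.23, 11.98 and 10.77, against 10.48, 10.13 and 11.20, a difference of 0.72 ± 0.26 with overlap, and 0.39 without infested replicate 2. All 6 of its probe sets lay above 0. IQD45, of a family of calmodulin-binding proteins, had a difference of 0.54 ± 0.17 with infested replicate 3 inside the uninfested range. The last 2 of the 12 rest on dim probe sets. The one of NHX1, a sodium and proton exchanger of the vacuole, had 5.68, 5.85 and 5.99, against 5.26, 5.33 and 5.46, a difference of 0.49 ± 0.14. The 3 brighter NHX1 probe sets had 0.23, 0.19 and −0.03, smaller than the dim one and, for 1 of them, of the other sign. The dim probe set of FAD8.2, an omega-3 fatty acid desaturase of the chloroplast, had 5.55, 5.60 and 5.62, against 5.01, 5.40 and 5.22, a difference of 0.38 ± 0.13, and its 2 brighter probe sets had 0.78 ± 0.40 and 0.78 ± 0.41 with overlapping groups.

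**Figure D3:**
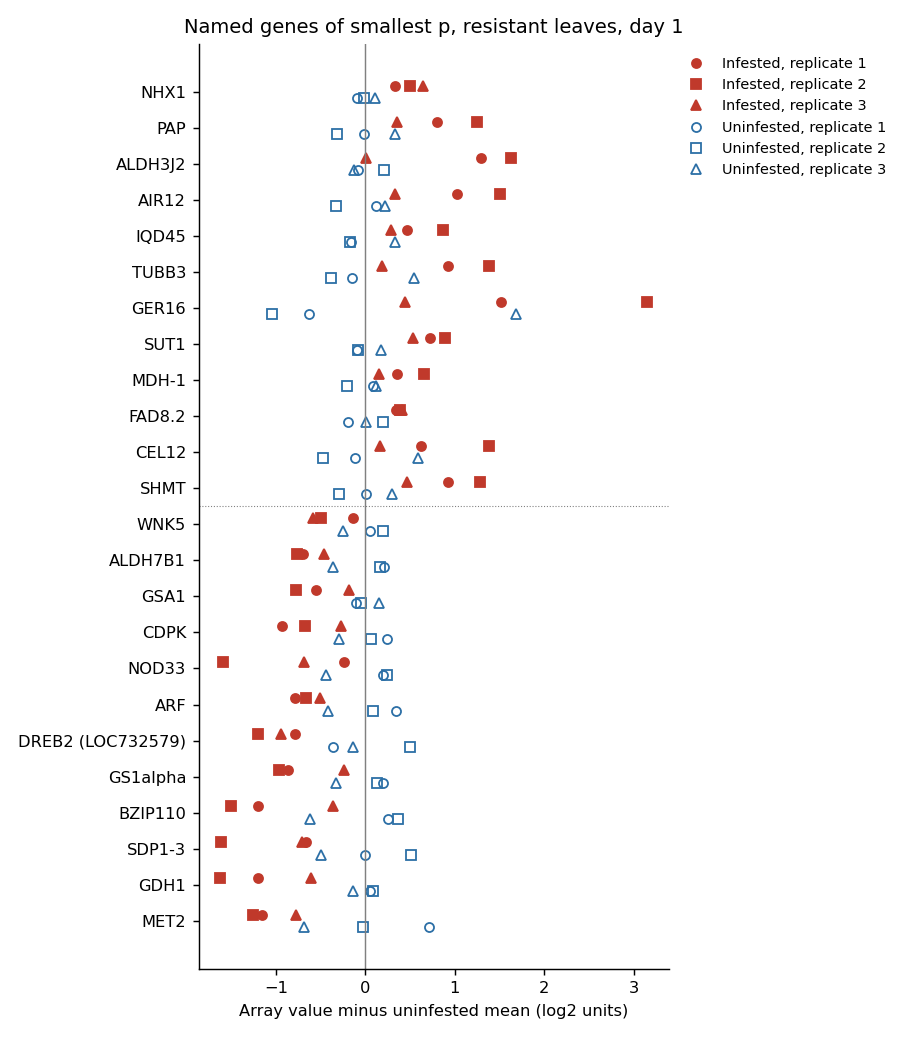
Each array's log2 value minus the mean of the 3 uninfested arrays (horizontal axis) for the 12 named genes of smallest p above 0 (above the dotted line) and the 12 below 0 (under it), with infested arrays filled in red above the uninfested ones in open blue for each gene. Infested replicate 2 (filled square) lies farthest out for most genes, as for GER16, and uninfested replicate 3 (open triangle) often lies toward the infested side.

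Of the 12 genes below 0, GDH1, glutamate dehydrogenase, which releases ammonium from glutamate, had 7.87, 7.45 and 8.46 on infested arrays, against 9.13, 9.16 and 8.94 on uninfested arrays, a difference of −1.15 ± 0.30, the lowest of the 12. All infested arrays lay below all uninfested arrays here and on 2 brighter GDH1 probe sets (−0.93 ± 0.26 and −0.82 ± 0.25), while its dim probe set had −0.32 ± 0.23. GS1alpha, a glutamine synthetase, which binds ammonium to glutamate, had 8.18, 8.08 and 8.80, against 9.24, 9.18 and 8.72, a difference of −0.69 ± 0.21 in which infested replicate 3 lay just above uninfested replicate 3, and its second probe set had −0.69 ± 0.25 with no overlap. SDP1-3, related to a lipase of Arabidopsis that breaks down stored oil, had 7.48, 6.53 and 7.43, against 8.14, 8.65 and 7.64, a difference of −0.996 ± 0.28 with no overlap. GSA1, which makes a precursor of chlorophyll, had 9.80, 9.58 and 10.17, against 10.25, 10.30 and 10.51, a difference of −0.50 ± 0.17 with no overlap. Its other probe sets had −0.40 ± 0.22 and −0.35 ± 0.20, both with overlapping groups.

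Of the remaining genes below 0, DREB2 (LOC732579), of the factors that bind the drought response element, had 8.99, 8.57 and 8.83 on infested arrays, against 9.42, 10.28 and 9.64 on uninfested arrays, a difference of −0.98 ± 0.30. No infested array reached an uninfested one, and a second probe set of the gene had −0.38 ± 0.33. ALDH7B1, an aldehyde dehydrogenase, had 10.03, 9.96 and 10.27, against 10.94, 10.89 and 10.36, a difference of −0.64 ± 0.22 with no overlap. BZIP110, a transcription factor, had 7.56, 7.25 and 8.40, against 9.01, 9.13 and 8.14, a difference of −1.02 ± 0.28 with overlap at replicate 3, and its other 2 probe sets had −0.81 ± 0.27 and −0.68 ± 0.29. CDPK, a calcium-dependent protein kinase, had −0.63 ± 0.20, and WNK5, a kinase of the WNK family, had −0.41 ± 0.14, each with infested and uninfested arrays that overlapped.

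MET2 had the smallest p of the 24, with 10.31, 10.21 and 10.70 on infested arrays, against 12.18, 11.45 and 10.78 on uninfested arrays, a difference of −1.06 ± 0.28. All infested arrays were lower and close together, uninfested replicate 3 lay near them, and the 4 other MET2 probe sets had −0.36 to −0.05. ARF had 11.41, 11.54 and 11.69, against 12.54, 12.28 and 11.78, a difference of −0.66 ± 0.21 with no overlap; of its other 2 probe sets 1 had −0.41 ± 0.22 and 1 had 0.35 ± 0.17, so they disagree in sign. NOD33, named as a nodulin, had 6.51, 5.15 and 6.06, against 6.94, 6.99 and 6.31, a difference of −0.84 ± 0.27 with overlap, and −0.46 without infested replicate 2.

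The defence hormone genes are given as lists, each gene by its brightest probe set, and no member of any list passed. On unscaled values the median of all probe sets was −0.15, and the salicylate, WRKY, MYB, redox, sugar, ion transport and light lists then had medians below 0 but above that of all probe sets. The 17 jasmonate genes (lipoxygenases and the later enzymes of jasmonate synthesis) had a median of −0.21 with 5 above 0, where the median of all probe sets was −0.016 and that of all named genes was 0.015. By array the median was −0.15, −0.51 and 0.09 for infested replicates 1, 2 and 3 against the uninfested mean, and it was 0.09 with 9 of 17 above 0 without infested replicate 2, so the sign of this list rests on that array. LOX9, a lipoxygenase, had 9.79, 7.37 and 10.65 on infested arrays, against 10.86, 10.22 and 10.11 on uninfested arrays, a difference of −1.13 ± 0.58, and of −0.18 without infested replicate 2, the lowest array. LOX1.4 (LOC547835), another lipoxygenase, had 8.37, 7.20 and 9.15, against 9.59, 9.11 and 8.78, a difference of −0.92 ± 0.47, and of −0.40 without infested replicate 2.

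The 16 salicylate and immune genes had a median of 0.08 with 11 above 0, and 14 above 0 without infested replicate 2. NDR1A, named for an Arabidopsis gene needed by some resistance proteins, had 8.22, 8.63 and 8.12, against 7.84, 7.87 and 8.10, a difference of 0.39 ± 0.17, and NDR1b had 0.41 ± 0.23. The infested arrays of NDR1A all lay above the uninfested ones, by little at replicate 3, and its difference was 0.24 without infested replicate 2. The 10 ethylene genes had a median of −0.04 with 5 above 0, among them ACS1, an ethylene synthesis enzyme, at 0.55 ± 0.37 and ETR2, an ethylene receptor, at −0.62 ± 0.29. The 41 genes of abscisic acid, drought and cold had a median of −0.07 with 15 above 0, near that of all probe sets. ERD15, of the early drought response, had 11.23, 10.44 and 11.59 on infested arrays, against 11.65, 12.16 and 11.61 on uninfested arrays, a difference of −0.72 ± 0.27 with no overlap, and of −0.40 without infested replicate 2.

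Phenolic compounds were followed in 2 lists. The 9 genes of phenylpropanoid entry and lignin had a median of 0.26 with 8 above 0, and 0.45 with 9 above 0 without infested replicate 2. By array their median was 0.51, 0.01 and 0.24 for infested replicates 1, 2 and 3. CYP98A2, a P450 enzyme on the path to lignin, had 11.25, 10.09 and 10.58 on infested arrays, against 10.05, 9.89 and 10.10 on uninfested arrays by its probe set of smallest p, a difference of 0.63 ± 0.42 with overlap. The 33 flavonoid and isoflavonoid genes had a median of −0.10 with 14 above 0. Infested replicate 2 went against the other two there, with a median of −1.03 beside 0.29 and 0.24 for infested replicates 1 and 3, and without it the median was 0.27 with 25 of 33 above 0. FLS1, flavonol synthase, had 9.84, 10.20 and 8.77, against 8.999, 8.83 and 8.94, a difference of 0.68 ± 0.27 with replicate 3 below the uninfested arrays, and of 0.38 without infested replicate 2. CYP93A2, a cytochrome P450, had 6.48, 6.08 and 7.30, against 8.02, 7.76 and 6.83, a difference of −0.91 ± 0.34.

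The medians of the WRKY, bZIP and MYB families lay near that of all probe sets. The 53 WRKY factors, many of which act in defence, had a median of 0.01 with 27 above 0, the 67 bZIP factors −0.02 with 31 above 0, and the 71 MYB factors 0.04 with 41 above 0. By array the WRKY median was 0.16, −0.33 and 0.10 for infested replicates 1, 2 and 3. Without infested replicate 2 it was 0.09 with 31 above 0. WRKY63 had 6.63, 6.17 and 7.70 on infested arrays, against 6.58, 5.69 and 5.73 on uninfested arrays, a difference of 0.84 ± 0.44, and WRKY58 had 0.66 ± 0.40. At the other end WRKY50 had −0.33 ± 0.14 and WRKY29, a dim probe set, −0.31 ± 0.13. The 20 NAC factors had a median of −0.16 with 7 above 0, and 0.07 without infested replicate 2. NAC12 had 9.74, 8.97 and 9.49, against 10.05, 10.65 and 10.12, a difference of −0.87 ± 0.33 with no overlap, while NAC55 (LOC100816770) had 9.37, 8.09 and 8.58, against 8.24, 7.74 and 7.90, a difference of 0.72 ± 0.43.

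Growth and water transport genes had medians above 0 that shrank without infested replicate 2. The 20 expansin, GASA and wall-loosening genes had a median of 0.37 with 16 above 0, and 0.03 with 11 above 0 without that array, whose own median was 0.98 beside 0.05 and −0.07 for infested replicates 1 and 3. XTH1, a wall-modifying enzyme, had 7.56, 9.23 and 7.68 on infested arrays, against 7.57, 6.66 and 7.44 on uninfested arrays, a difference of 0.94 ± 0.57, and of 0.40 without infested replicate 2. The 23 aquaporins, the water channels of plant membranes, had a median of 0.19 with 17 above 0, and 0.08 with 13 above 0 without infested replicate 2. PIP2-13 had 11.15, 11.25 and 10.95, against 10.37, 9.99 and 10.65, a difference of 0.78 ± 0.30 with all infested arrays above all uninfested arrays.

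The 8 heat shock genes had a median of 0.38 with 7 above 0, and all 3 infested arrays had a median above 0 (0.27, 0.20 and 0.63). Its size rests on single arrays, since leaving out infested replicate 3 gave a median of 0.18 and leaving out uninfested replicate 2 gave 0.20. BIP2, a chaperone of the endoplasmic reticulum, had 7.70, 7.67 and 7.73 on infested arrays, against 6.68, 6.49 and 7.31 on uninfested arrays, a difference of 0.87 ± 0.47. Its infested arrays were nearly equal and all lay above the uninfested ones. HSP23.9, by a dim probe set, had 0.40 ± 0.18 with no overlap. Among 67 redox genes the median was 0.06 with 35 above 0. PRX2, a peroxidase, had 0.89 ± 0.37 and GSTU44 (LOC100500361), a glutathione transferase, −0.68 ± 0.24, both with overlapping groups, and PRX2 had 0.46 without infested replicate 2.

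The other lists lay close to 0 or had few members. The 10 fatty acid desaturation genes had 0.19 with 6 above 0, with FAD6.1, a chloroplast desaturase, at 9.13, 8.70 and 8.67 on infested arrays, against 8.24, 8.46 and 8.05 on uninfested arrays, a difference of 0.58 ± 0.29 and no overlap. The 12 nitrogen, amino acid and ureide genes had −0.08 with 5 above 0, with AAH, an enzyme of ureide breakdown, at 0.33 ± 0.18 and at 0.14 without infested replicate 2. The 10 sugar genes had 0.04 with 5 above 0, the 23 calcium and kinase genes −0.01 with 10 above 0, the 32 cytochrome P450 genes −0.01 with 15 above 0, and the 13 light and photosynthesis genes 0.08 with 9 above 0. In the last list GmCRY1c1 (LOC100786551), of the blue light receptors, had 0.50 ± 0.25 and GmCRY2c (LOC100808627) had 9.30, 8.90 and 9.60, against 10.002, 10.11 and 9.75, a difference of −0.69 ± 0.28 with no overlap. The 4 ion and salt transport genes had 0.03 and the 2 lipid breakdown genes −0.58.

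**Figure D4:**
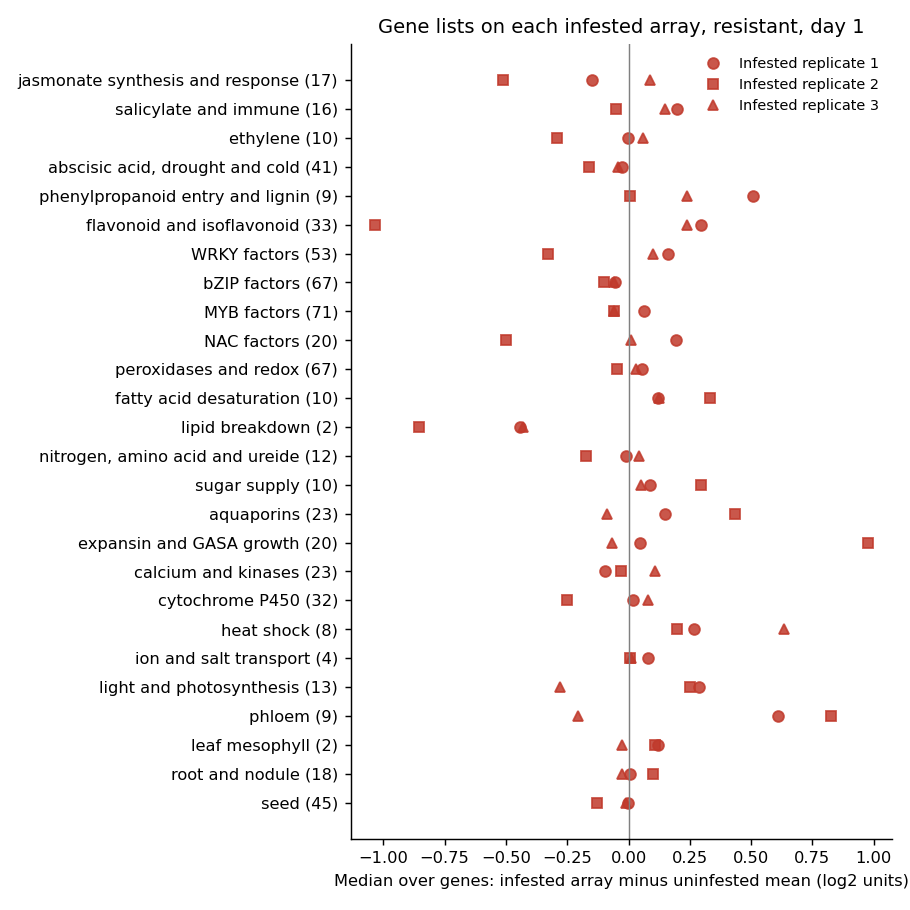
Median over the genes of each list (number of genes in brackets) of each infested array minus the uninfested mean, in log2 units, for resistant leaves of day 1. Infested replicate 2 (square) lies apart from replicates 1 and 3 for the flavonoid, NAC, jasmonate and expansin and GASA lists, at −1.03, −0.50, −0.51 and 0.98, while the 3 arrays of the heat shock list lie between 0.20 and 0.63.

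Whether infested resistant leaves differ from infested susceptible leaves in their aphid effect on day 1 was tested as the resistant difference minus the susceptible difference. By limma 333 of 37593 probe sets passed (0.886%), 238 with a higher (0.633%) and 95 with a lower difference (0.253%) in resistant leaves, with a smallest adjusted p of 0.029. All 238 had a susceptible difference below 0, and 236 of them had a resistant difference above 0, with a median of 0.54 in resistant and −1.22 in susceptible leaves. All 95 had a resistant difference below 0 (median −0.47) and a susceptible one above 0 (median 0.72). Choice by the size of resistant minus susceptible favours opposite signs, so these signs and medians partly follow from the choice. The count of 333 depends on single arrays: it was 0 without infested resistant replicate 2, 1 without uninfested resistant replicate 1, 0 without uninfested resistant replicate 2 and 4 without uninfested susceptible replicate 1. It was 172, 3774 and 1667 without infested resistant replicate 1, infested resistant replicate 3 and uninfested resistant replicate 3, and it was 0, 15 and 0 without infested susceptible replicate 1, 2 or 3 and 1400 and 502 without uninfested susceptible replicate 2 or 3. It was 11 on unscaled values, all 11 with a lower difference in resistant leaves, and 0 with the 3′ minus 5′ signal as a covariate. That signal averaged 1.14 ± 0.467 in infested and 0.900 ± 0.0921 in uninfested resistant leaves, and 1.03 ± 0.187 in infested and 1.51 ± 0.440 in uninfested susceptible leaves (SD, n = 3 each), and its part in these calls was not tested further.

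The named genes that passed above 0 include a water channel, growth genes and transcription factors. PIP1-6, an aquaporin, had 7.99, 10.95 and 6.68 on infested resistant arrays, against 6.61, 6.71 and 8.17 on uninfested resistant arrays. On susceptible arrays it had 7.73, 8.48 and 8.23 with aphids, against 11.72, 10.42 and 11.005 without. The resistant difference was 1.38 ± 0.70, and 0.17 without infested replicate 2, the highest resistant array, the susceptible difference −2.90 ± 0.70, and the one minus the other 4.27 ± 0.99 (adjusted p 0.048). GmTIP2;3 (LOC100306092), an aquaporin of the vacuole, had 0.88 ± 0.50 in resistant and −2.17 ± 0.50 in susceptible leaves, which differ by 3.05 ± 0.70 (adjusted p 0.0473), and its resistant difference was 0.10 without infested replicate 2. Of the 23 aquaporins these 2 passed, where 0.886% of all probe sets passed and, of the 1129 named genes by their brightest probe set, 9 passed above 0 and 2 below 0.

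ADR11, an auxin-responsive gene of soybean, had 7.23, 9.92 and 7.11 on infested resistant arrays, against 7.07, 6.86 and 7.98 on uninfested resistant arrays, and 7.79, 8.20 and 8.30 on infested susceptible arrays, against 12.44, 10.53 and 10.88 on uninfested susceptible arrays. The uninfested susceptible arrays stood far above all others, and among resistant arrays infested replicate 2 was high. Its difference was 0.78 ± 0.56 in resistant and −3.18 ± 0.56 in susceptible leaves, which differ by 3.96 ± 0.80 (adjusted p 0.0422), and by 2.98 ± 0.65 on a second probe set, whose resistant difference turned to −0.30 without infested replicate 2. GASA3, of a family of small proteins regulated by gibberellin in other plants, had 0.65 ± 0.47 in resistant and −2.42 ± 0.47 in susceptible leaves, which differ by 3.08 ± 0.67 (adjusted p 0.0422), and 0.36 in resistant leaves without infested replicate 2.

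BZIP48 and BZIP50, transcription factors, had differences of 0.69 ± 0.46 and 0.67 ± 0.40 in resistant leaves and −2.60 ± 0.46 and −2.06 ± 0.40 in susceptible leaves. The cultivar differences were 3.30 ± 0.65 and 2.73 ± 0.56 (adjusted p 0.0406 and 0.0422). A second, brighter BZIP50 probe set had 1.02 in resistant and −3.21 in susceptible leaves, which differ by 4.23 ± 0.90 (adjusted p 0.0422). On the first probe set of both genes infested replicate 2 was the single high resistant array, at 7.54 and 7.36, and without it their resistant differences were 0.02 and 0.07. RLK2, a receptor-like kinase, had 0.62 ± 0.31 in resistant and −1.42 ± 0.31 in susceptible leaves, which differ by 2.04 ± 0.44 (adjusted p 0.0424).

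The remaining genes above 0 were ALDH3J2, PAP and CHI3A1. ALDH3J2 had −1.08 ± 0.30 in susceptible leaves, so that its resistant difference of 0.98 ± 0.30 exceeded it by 2.05 ± 0.42 (adjusted p 0.0422). PAP had −0.77 ± 0.23 in susceptible leaves and differed between cultivars by 1.57 ± 0.32 (adjusted p 0.0422). These were the 2 of the 12 leading genes above 0 whose difference between cultivars passed. CHI3A1, of the chalcone isomerase family of flavonoid synthesis, had 5.89, 6.55 and 5.73 on infested resistant arrays, against 5.39, 5.54 and 5.75 on uninfested ones, a difference of 0.50 ± 0.21, where susceptible leaves had −0.94 ± 0.21 and the cultivar difference was 1.44 ± 0.29 (adjusted p 0.0422). Its resistant difference was 0.25 without infested replicate 2.

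Below 0 the passing named genes were GDH1, BZIP130, WRKY22 and WRKY48. GDH1, by a probe set other than that of smallest p, had 9.60, 8.74 and 9.33 on infested resistant arrays, against 10.27, 10.32 and 9.88 on uninfested resistant arrays, and 9.78, 9.08 and 9.26 on infested susceptible arrays, against 8.62, 8.83 and 8.72 on uninfested susceptible arrays. Infested arrays were all lower than uninfested ones in resistant leaves and all higher in susceptible leaves, and the cultivar difference was −1.58 ± 0.37 (adjusted p 0.0493). BZIP130 had 7.78, 7.53 and 8.05 on infested resistant arrays, against 8.39, 8.10 and 7.995 on uninfested ones, a difference of −0.38 ± 0.16, where susceptible leaves had 0.93 ± 0.16 and the cultivar difference was −1.31 ± 0.23 (adjusted p 0.0305). WRKY22 had −0.29 ± 0.15 in resistant and 0.66 ± 0.15 in susceptible leaves (cultivar difference −0.94 ± 0.22, adjusted p 0.0473). WRKY48 had −0.46 ± 0.21 in resistant and 0.82 ± 0.21 in susceptible leaves (cultivar difference −1.28 ± 0.30, adjusted p 0.0493). Of the 53 WRKY factors 1 passed by its brightest probe set and none of the 17 jasmonate, 33 flavonoid, 20 NAC or 8 heat shock genes did by theirs, counts that lie near the 0.886% of all probe sets. CHI3A1 passed by a probe set that this count does not use. Of the 67 bZIP factors 2 passed above 0 and 1 below 0. Above 0, 1 of 20 expansin and GASA, 1 of 23 calcium and kinase and 1 of 67 redox genes passed. These shares were higher but rest on few genes, and they were not tested.

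Without infested resistant replicate 2 none of these genes passed, although each kept its sign: the cultivar difference was 2.62 for BZIP48, 1.73 for ALDH3J2 and −1.18 for BZIP130. Over 19 or 20 other settings, each of the 16 probe sets of these genes passed in 5 to 9, with adjusted p from 0.00358 to 0.512 by limma, and none changed sign in them.

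**Figure D5:**
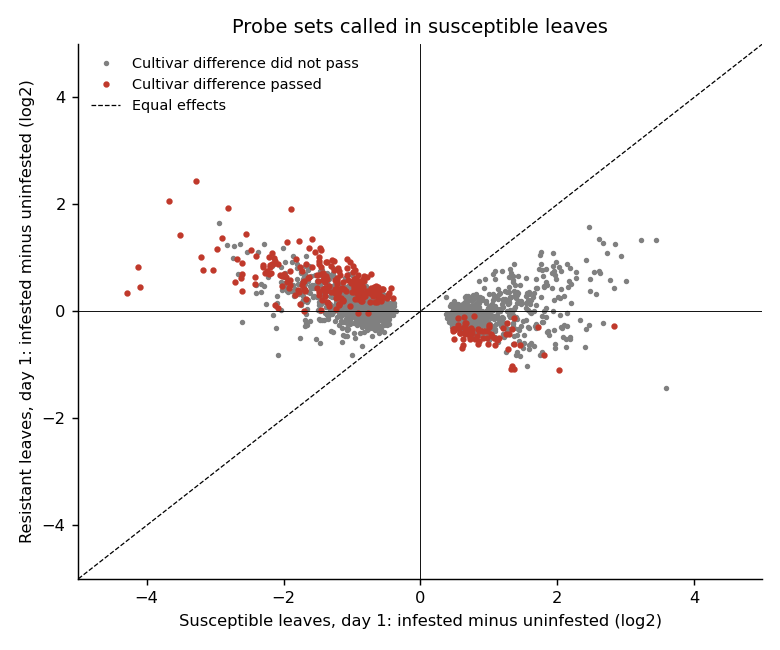
Infested minus uninfested difference on day 1 in susceptible leaves (horizontal axis, log2) and in resistant leaves (vertical axis, log2) for the 1883 probe sets called in susceptible leaves, with those whose difference between cultivars passed in red. Nearly all of the 286 red points have opposite signs in the 2 cultivars, and they lie away from the dashed line of equal effects. Both features are favoured by their choice through the difference between cultivars.

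The genes that changed most in susceptible leaves were followed in resistant leaves. WRKY30, which rose by 3.01 ± 0.75 in susceptible leaves, had 10.96, 9.17 and 11.74 on infested resistant arrays, against 10.50, 9.31 and 10.33 on uninfested resistant arrays, a difference of 0.58 ± 0.75, and of 1.30 without infested replicate 2. SCOF-1, a cold-inducible zinc finger factor that rose by 2.54 ± 0.45 in susceptible leaves, had 10.75, 8.77 and 9.92 on infested resistant arrays, against 9.997, 8.81 and 8.41 on uninfested resistant arrays, a difference of 0.74 ± 0.45, and of 1.26 without infested replicate 2. B13-1-9, which rose by 2.67 ± 0.61 in susceptible leaves, had 8.85, 5.65 and 6.61, against 6.69, 5.09 and 5.46, a difference of 1.29 ± 0.61, and of 1.98 without infested replicate 2. For these 3 genes the cultivar difference did not pass (−2.43 ± 1.06, −1.80 ± 0.64 and −1.38 ± 0.86, adjusted p 0.19, 0.114 and 0.357), so resistant leaves are not shown to differ from susceptible ones in them. Uninfested resistant leaves had WRKY30 at 9.31 to 10.50, where uninfested susceptible leaves had 5.73 to 8.58.

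The other 5 susceptible rises had small or negative estimates in resistant leaves, each with infested replicate 2 as the lowest infested array. H4 had −0.15 ± 0.62, PSK5 −0.52 ± 0.57, PTS-L4 −0.26 ± 0.48 and SFERH-2, a ferritin gene for iron storage, −0.27 ± 0.42, and without that array the 4 values were 0.81, 0.04, 0.27 and 0.16, so their sign turned. CYP98A2, by the probe set called in susceptible leaves, had 0.34 ± 0.41, and 0.57 without infested replicate 2. Among the largest falls of susceptible leaves, GASA14 had 0.49 ± 0.60 in resistant leaves and −0.08 without infested replicate 2, where susceptible leaves had −2.40 ± 0.60. SGlu2 (LOC547822) was the exception in sign: it had 8.81, 9.55 and 8.49 on infested resistant arrays, against 8.74, 10.10 and 10.47 on uninfested resistant arrays, a difference of −0.82 ± 0.44, where susceptible leaves had −2.09 ± 0.44.

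Over all 1883 probe sets called in susceptible leaves, 565 had the same sign in resistant leaves (30.01%), where the share among all probe sets was 41.7%. The share differed by array: it was 38.3%, 14.9% and 69.0% for infested replicates 1, 2 and 3 against the uninfested mean, and 51.8% without infested replicate 2, where the share among all probe sets was 51.0%. For 286 of the 1883 the difference between cultivars passed, where 0.886% of all probe sets did. The susceptible difference enters both tests, so a raised share here partly follows from the choice. In resistant leaves the called probe sets had a median of −0.09 where susceptible leaves had a rise (median 0.86) and of 0.14 where they had a fall (median −0.91). Without infested replicate 2 these medians were 0.04 and −0.003, and for infested replicate 3 against the uninfested mean they were 0.15 and −0.11, so both signs turned.

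After 7 days the 24 leading genes of day 1 were mostly near 0 in resistant leaves. They were chosen by their day 1 p, which by itself favours smaller values on other arrays. The same choice favours a day 7 minus day 1 difference below 0 for FAD8.2, which is among them. The 12 genes above 0 on day 1 had day 7 differences from −0.18 to 0.50 with 8 above 0, and the 12 below 0 had −0.37 to 0.18 with 10 below 0. No probe set passed in day 7 minus day 1 (0%; 1032 at an unadjusted p under 0.05, 2.75%; smallest adjusted p 1.00 by limma), so a difference between days is not shown for any of them. The named genes with the smallest p in that test were SCAM-5, a calmodulin, at −0.70 ± 0.21, FAD8.2 at −0.55 ± 0.19 and HSF-08 at −1.44 ± 0.52 below 0, and HPS at 0.54 ± 0.18, UR2 at 0.55 ± 0.19 and TBP1 at 0.39 ± 0.14 above 0. SCAM-5, by that dim probe set, had 0.31 ± 0.15 on day 1 and −0.39 ± 0.15 on day 7.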

How the data were processed

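Total RNA of 24 leaf samples was labelled with biotin and hybridised to 1-colour Affymetrix arrays, per the labels' protocols. The deposited table holds log2 intensities. RMA, GCRMA and limma appear in the submitters' processing notes without versions, and no source used here says how probes were combined. Taken off the log scale, 99.6% of the deposited values lay within 0.01 of a whole number, and the median differed between arrays (7.00 to 8.04), so the 37593 soybean probe sets were quantile-normalized here and 60 control probe sets left out. Groups came from the titles. Means of 8 groups were fitted with limma 3.58.1 in R 4.3.3 (16 residual and 3.65 prior degrees of freedom), with Benjamini-Hochberg adjustment within each of 5 contrasts at 0.05, and the procedure was tested on simulated data.

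Of the probe sets, 8677 carried 1 gene symbol in the platform annotation, 370 several and 28546 none, and 8652 were found in RefSeq's Glycine_max_v4.0 table. Named genes were the 12 of smallest p in each direction, up to 2 per direction from each list, the largest calls of susceptible leaves and the leading genes of the 2 tests of differences, with 1 probe set per gene. Lists use each gene's brightest probe set. The members and lists were chosen with earlier results of these data known. Alternatives were unscaled and median-centred values, brighter probe sets, other variance models, array weights, a replicate block, the 3′ minus 5′ signal and leaving out arrays.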

Additional observations from a re-analysis of the deposited data

Results flagged for a closer look

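These results are singled out because the aphid effect of day 1 differed between resistant and susceptible leaves in a direct test of that difference by limma, and no explanation was weighed. The difference passed for 333 probe sets. Above 0, resistant minus susceptible, it was 4.27 for PIP1-6, 3.05 for GmTIP2;3 (LOC100306092), 3.96 and 2.98 for the 2 probe sets of ADR11, 3.30 for BZIP48, 2.73 and 4.23 for the 2 probe sets of BZIP50 and 3.08 for GASA3. It was 2.04 for RLK2, 2.05 for ALDH3J2, 1.57 for PAP and 1.44 for CHI3A1. Below 0 it was −1.58 for GDH1, −1.31 for BZIP130, −1.28 for WRKY48 and −0.94 for WRKY22. None of these 16 probe sets passed without infested resistant replicate 2, where their adjusted p ran from 0.0612 to 0.140 by limma.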

How the results depend on the processing

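The count of probe sets passing between infested and uninfested resistant leaves on day 1 was 0 in the 9 settings that kept all 6 arrays, and 0 to 4 with an array left out. The difference between days had 0 in the same 9 settings and 0 to 1 with an array left out. The difference between cultivars, 333 probe sets, moved most: it gave 475 on median-centred values, 11 on unscaled values, 193 with a trended and robust variance, 2173 with array weights, and 0 with brighter probe sets alone, with its own 4 groups alone or with the 3′ minus 5′ signal as a covariate. Leaving out an array gave 0 to 3774. The cause of these moves was not tested. The share of probe sets whose groups do not overlap was 14.1% to 28.8% with an array left out, when fewer arrays have to separate, and the share of susceptible calls with the same sign was 51.8% without infested replicate 2. Fitting the cultivar difference without uninfested susceptible leaves of day 1 was not run, since it uses them. For resistant leaves of day 1, deviations from the group mean had same-number correlations of 0.109, −0.288 and −0.325 between infested and uninfested arrays. Those of different numbers ran from −0.228 to 0.392. With 3 arrays in a group these values cannot settle if replicate numbers pair the samples. With the replicate number as a block the counts were 0 for resistant leaves on day 1, 98 for the cultivar difference and 0 for the day difference.

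In resistant leaves on day 1, 6 single values changed sign. H4 had 0.253 with array weights and 0.213 with the 3′ minus 5′ signal fitted, and −0.784 to 0.814 with an array left out. PSK5 had 0.0657 with that signal fitted and −0.950 to 0.0369 with an array left out, and PTS-L4 had 0.162 and −0.655 to 0.274. ADR11 on its second probe set had −0.0459 with the signal fitted and −0.296 to 0.794 with an array left out. SFERH-2 had −0.664 to 0.157 and GASA14 −0.0819 to 1.11 with an array left out. Among the other values of single genes and lists, 1771 kept their direction and side of the threshold, 196 no longer passed, 1 newly passed and 58 moved by more than the spread. The number of arrays limits the precision, and dim probe sets near 5 are close to the lowest signals.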

Other observations

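The gene LOC100779587 was chosen after its values were seen. Its probe set had a difference of 2.95 ± 0.65 between infested and uninfested resistant leaves on day 1, and its groups overlapped (adjusted p 0.620 by limma).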
